A study of Homo sapiens with 5 samples.

Results

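Transfer RNA made up 349 of the 3147 regions in 5 CLIP-Seq region lists from HEK-293 cells, a human embryonic kidney cell line. A region was taken as tRNA where the deposited same-strand annotation classed it as tRNA, and it was grouped by the amino acid and codon in its tRNA name. CLIP-Seq crosslinks RNA to bound protein with ultraviolet light, pulls the protein down and sequences the attached RNA. The lists came from 2 experiments. In experiment 1, lysates received RNase I at 0.04 units/ml, and the libraries were GFP alone and GFP-(GR)50 replicate 1. In experiment 2, lysates received 0.02 units/ml, and the libraries were untransfected cells, GFP-(GP)10 and GFP-(GR)50 replicate 2. GFP-(GR)50 is green fluorescent protein fused to 50 glycine-arginine repeats and GFP-(GP)10 is the same protein fused to 10 glycine-proline repeats. Both repeats are among the dipeptide proteins made from the C9ORF72 expansion of familial ALS and frontotemporal dementia.

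All transfected cells received their plasmid by lipofection, whose promoter is not named in the sources used here. All 5 libraries shared ultraviolet crosslinking at 100 mJ/cm2 and 254 nm and a pulldown of 1.5 hours on beads that bind GFP. RNA was recovered from the membrane at the size of the GFP-(GR)50 complexes, and from that same size range in the controls. A control list therefore shows what was recovered at the size of another protein, and the untransfected list what was recovered with no GFP in the cells. Each group has 1 library per experiment, so no test between conditions was made. A list holds only regions with at least 5 reads, and its total is the sum of listed reads, not the depth of the library. A locus with no region may still have had reads below that minimum. The lists hold bound regions rather than expression levels, so the cell line was not checked against marker genes.

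A tRNA reads 1 or more codons through its anticodon and carries the matching amino acid to the ribosome. RNA polymerase III transcribes tRNA genes, and RNase P and other enzymes trim the ends of the transcript. Human nuclear tRNA genes occur in many copies, often identical in sequence and clustered on chromosomes 1 and 6. A short read from such a copy can map to several places. The deposited lists give for each region the reads that map to 1 place (unique reads) and, in a further column, these plus multimapping reads scaled by the authors. The latter are called listed reads here. The deposited names give the codon, with Y for C or T. RefSeq symbols give the one-letter amino acid and then the anticodon, so that TRK-TTT3-5 is a lysine tRNA gene with anticodon TTT.

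By RefSeq position (GRCh38.p14), 334 of the 349 regions lay in a nuclear tRNA gene, 4 in a tRNA pseudogene and 11 in neither. The amino acid of the deposited name and of RefSeq was the same in 337 of the 338 regions with a match. The remaining region was named tRNA-Glu-GAG in the deposited list and lay at the glycine gene TRG-CCC7-1. Codon names were less exact than amino acids. Of the 32 matched regions named tRNA-Glu-GAG, 20 lay at genes with anticodon CTC, which reads GAG, and 11 at genes with anticodon TTC, which reads GAA. Over all 320 regions with a codon in the name and a RefSeq anticodon, 300 had an anticodon that reads the named codon. The other 20 were named as glutamate (12), alanine (5) or arginine (3) tRNAs, so codon families below follow the deposited names. No region of any list lay on the mitochondrial chromosome.

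The GFP list held most tRNA regions. Each GFP-(GR)50 list held fewer than the GFP or GFP-(GP)10 list of its experiment. GFP-(GR)50 replicate 2 held more than untransfected cells. tRNA took 230 of 472 regions (48.7%) from GFP, 4 of 183 from GFP-(GR)50 replicate 1, 7 of 1339 from untransfected cells, 68 of 348 from GFP-(GP)10 and 40 of 805 from GFP-(GR)50 replicate 2. Their listed reads summed to 8407 from GFP and 36.5 from GFP-(GR)50 replicate 1. In experiment 2 the sums were 56.8 from untransfected cells, 729 from GFP-(GP)10 and 518 from GFP-(GR)50 replicate 2. As shares of all listed reads (95% Clopper-Pearson interval, counting error only), these were 27.5% (27.0 to 28.0) for GFP and 0.0644% (0.0446 to 0.0881) for GFP-(GR)50 replicate 1. The shares in experiment 2 were 0.252% (0.192 to 0.328) for untransfected cells, 9.76% (9.10 to 10.5) for GFP-(GP)10 and 0.386% (0.353 to 0.421) for GFP-(GR)50 replicate 2. Each GFP-(GR)50 list thus lay far below the GFP-expressing control of its own experiment. Copies of a tRNA share multimapping reads, so the reads behind these intervals are not independent.

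In percentage points of listed reads, GFP-(GR)50 replicate 1 lay at -27.4 against GFP, and GFP-(GR)50 replicate 2 lay at -9.37 against GFP-(GP)10 and 0.134 against untransfected cells. The mean of the GFP-(GR)50 lists was 0.225% ± 0.227 (SD, n = 2). The SD was as large as the mean, and RNase I amount and experiment cannot be told apart between the replicates. Reads in ribosomal RNA weigh on the denominator. Outside annotated rRNA, tRNA took 76.1% of listed reads for GFP, 2.20% for GFP-(GR)50 replicate 1, 0.445% for untransfected cells, 23.0% for GFP-(GP)10 and 1.58% for GFP-(GR)50 replicate 2. When unannotated regions of a contig found in experiment 2 alone that match rRNA regions in width and reads were also left out, untransfected cells had 0.551%, GFP-(GP)10 35.4% and GFP-(GR)50 replicate 2 7.30%. The order of the libraries within each experiment was the same on these scales. The difference of GFP-(GR)50 replicate 2 from untransfected cells shrank to 0.0529 points when 3 tRNA-like regions described below were left out. The GFP-(GR)50 share was then 0.305%, within the interval of untransfected cells. All 3 came from GFP-(GR)50 replicate 2. A tRNA-Lys-AAG copy outside RefSeq tRNA genes, with 5.50 listed reads from untransfected cells, was kept, so copies were left out on 1 side only.

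Listed tRNA regions had a lower median in every other list than in GFP. The median tRNA region had 17.5 listed reads from GFP, 7.13 from GFP-(GR)50 replicate 1, 8.10 from untransfected cells, 8 from GFP-(GP)10 and 7.25 from GFP-(GR)50 replicate 2. The strongest had 568, 16.1, 10, 35 and 50 listed reads in the same order. Per kilobase of listed tRNA region, reads came to 613 from GFP, 156 from GFP-(GR)50 replicate 1, 163 from untransfected cells, 184 from GFP-(GP)10 and 208 from GFP-(GR)50 replicate 2. The median over all regions of a list was 12.2 from GFP and 13.2 from GFP-(GR)50 replicate 1. In experiment 2 it was 6.50 from untransfected cells, 6.41 from GFP-(GP)10 and 6.75 from GFP-(GR)50 replicate 2. The tRNA median thus lay below that of all regions in GFP-(GR)50 replicate 1 and above it in the other lists. GFP stood apart in number and height of tRNA regions, but heights are not scaled for depth and all regions were lower in experiment 2.

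Unique reads made up about the same part of tRNA reads in the 3 lists with many regions, 51% for GFP, 50.2% for GFP-(GP)10 and 50.4% for GFP-(GR)50 replicate 2. They made up 68.6% for GFP-(GR)50 replicate 1 and 74.0% for untransfected cells. No unique read supported 85 of the 230 tRNA regions from GFP, 25 of 68 from GFP-(GP)10 and 12 of 40 from GFP-(GR)50 replicate 2. Every tRNA region of GFP-(GR)50 replicate 1 and of untransfected cells had at least 1 unique read. A lack of unique reads did not set tRNA-like copies apart from tRNA genes, since 119 of the 334 regions in RefSeq tRNA genes had none. At least 5 unique reads supported 100 regions from GFP, 3 from GFP-(GR)50 replicate 1, 5 from untransfected cells, 32 from GFP-(GP)10 and 20 from GFP-(GR)50 replicate 2. Counted in unique reads alone, tRNA took 68.8% of GFP, 1.56% of GFP-(GR)50 replicate 1, 0.488% of untransfected cells, 24.0% of GFP-(GP)10 and 2.83% of GFP-(GR)50 replicate 2.

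In GFP, tRNAs for 20 amino acids had a region, counting selenocysteine, and these fell into 45 codon families. RefSeq lists 443 nuclear tRNA genes, of which GFP covered 222 (50.1%), GFP-(GR)50 replicate 1 covered 4, untransfected cells 6, GFP-(GP)10 66 and GFP-(GR)50 replicate 2 36. In GFP, all 13 aspartate genes and all 9 histidine genes had a region, as did 15 of 19 methionine, 15 of 20 glutamate, 14 of 20 threonine and 18 of 26 arginine genes. Coverage was low for valine (5 of 30), glutamine (2 of 19), leucine (10 of 32) and cysteine (9 of 29). Copies share multimapping reads, so a covered gene need not be the source of its reads. Of the 222 GFP regions in RefSeq tRNA genes, 85 had no unique read. Among all GFP regions, 7 of 10 for histidine and 8 of 14 for aspartate had none. None of the 7 tryptophan genes had a region in any list. GFP-(GP)10 reached 12 amino acids, GFP-(GR)50 replicate 2 reached 10, and GFP-(GR)50 replicate 1 and untransfected cells 3 each. These counts include copies outside RefSeq tRNA genes, and glutamine in GFP-(GR)50 replicate 2 rests on 1 such copy with no unique read. Lysine and arginine were the amino acids with a region in all 5 lists. Cysteine, isoleucine, leucine, methionine and valine tRNAs had regions in GFP and in no other list.

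Lysine tRNA led the tRNA reads of both GFP-(GR)50 lists. Lysine took 16.0% (15.2 to 16.8) of tRNA reads for GFP and 60.9% (43.5 to 76.9) for GFP-(GR)50 replicate 1. In experiment 2 it took 69.7% (56.6 to 81.6) for untransfected cells, 16.7% (14.1 to 19.6) for GFP-(GP)10 and 31.3% (27.3 to 35.5) for GFP-(GR)50 replicate 2. The value of GFP-(GR)50 replicate 2 was 28.3% without its tRNA-like copies. The high shares of GFP-(GR)50 replicate 1 and untransfected cells rest on 2 and 5 lysine regions. Glutamate tRNA took 16.2% for GFP, 19.9% for GFP-(GR)50 replicate 1, 24.0% for GFP-(GP)10 and 11.7% for GFP-(GR)50 replicate 2, and had no region in untransfected cells. Aspartate tRNA took 10.1% for GFP, 17.9% for GFP-(GP)10 and 16.8% for GFP-(GR)50 replicate 2, with no region in the other lists. Lysine, glutamate, aspartate and arginine tRNAs were the 4 strongest in GFP and in GFP-(GR)50 replicate 2.

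**Figure D1:**
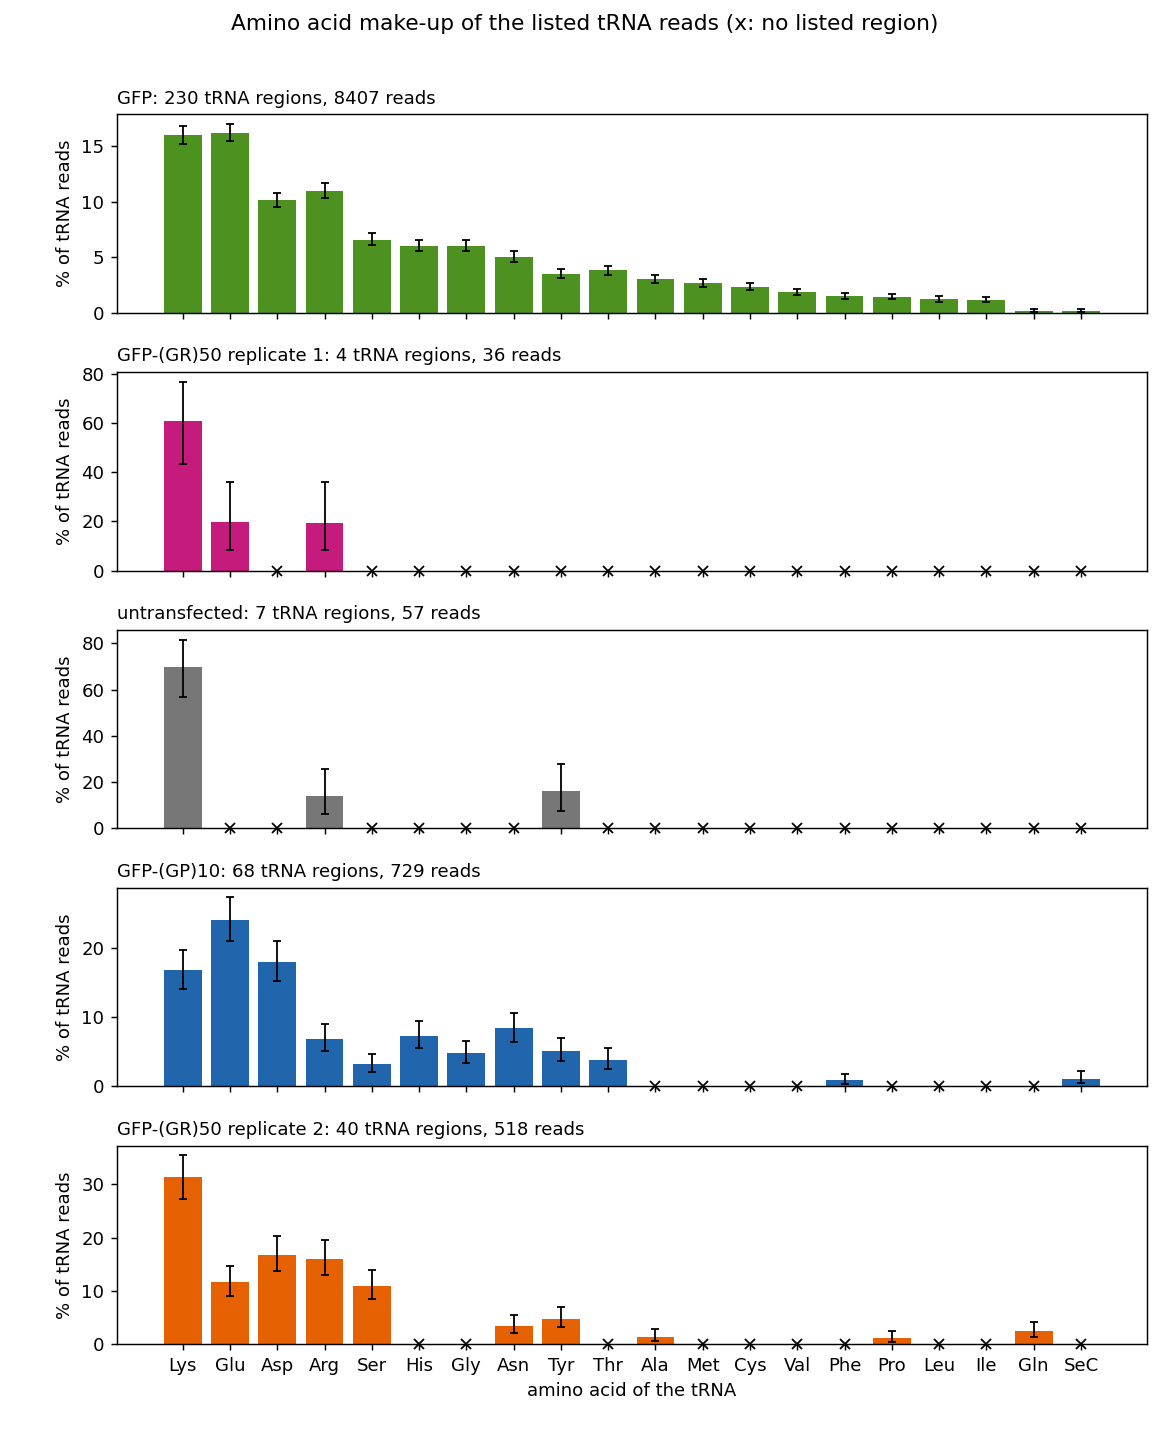
Share of the listed tRNA reads of each library by amino acid, in percent, with 1 panel per library and its own vertical scale; error bars are 95% Clopper-Pearson intervals of counting error and a cross marks an amino acid with no listed region. Lysine takes 16.0% for GFP and 31.3% for GFP-(GR)50 replicate 2, where histidine and glycine have no region.

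The amino acids of the repeats were followed by codon. Glycine tRNA had 19 regions with 509 listed reads from GFP and 5 regions with 34.9 from GFP-(GP)10, and no region in GFP-(GR)50 replicate 1, untransfected cells or GFP-(GR)50 replicate 2. In GFP, Gly-GGA took 361 listed reads, Gly-GGY 143 and Gly-GGG 5.80. All 5 glycine regions of GFP-(GP)10 were Gly-GGA. Glycine took 6.06% (5.55 to 6.59) of tRNA reads with GFP and 4.80% (3.37 to 6.61) with GFP-(GP)10. Since the GFP-(GR)50 replicate 2 list leaves out regions below 5 reads, weaker glycine signal spread over several genes would not appear in it. Few glycine reads were unique, 21 from GFP and 3 from GFP-(GP)10.

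Arginine tRNA had regions in every list. Its listed reads were 922 from GFP over 18 regions, 7 from GFP-(GR)50 replicate 1 over 1, 8 from untransfected cells over 1, 49.8 from GFP-(GP)10 over 3 and 82.8 from GFP-(GR)50 replicate 2 over 6. As a share of tRNA reads it took 11% (10.3 to 11.7), 19.2% (8.19 to 36.0), 14.1% (6.26 to 25.8), 6.83% (5.13 to 8.94) and 16.0% (13 to 19.5) in the same order. The interval of GFP-(GR)50 replicate 2 lay above that of GFP-(GP)10 and overlapped that of untransfected cells. Arg-CGA had the most arginine reads, with 326 from GFP, 8 from untransfected cells, 32 from GFP-(GP)10 and 50 from GFP-(GR)50 replicate 2. Arg-AGG by deposited name had 293 reads from GFP and 5 from GFP-(GR)50 replicate 2. Of these, 29 from GFP and all 5 from GFP-(GR)50 replicate 2 lay at TRR-CCG2-1, whose anticodon CCG reads CGG, and not at a gene with anticodon CCT. Arg-CGY had 139 from GFP and 20.8 from GFP-(GR)50 replicate 2. Neither Arg-AGG nor Arg-CGY had a region in GFP-(GP)10. Arg-CGG by deposited name had 138 from GFP (36.6 of them at TRR-TCG3-1, whose anticodon reads CGA), 7 from GFP-(GR)50 replicate 1 and 9.75 from GFP-(GP)10. Arg-AGA was weak throughout, with 27 from GFP, 8 from GFP-(GP)10 and 7 from GFP-(GR)50 replicate 2.

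Proline tRNA had 10 regions with 122 listed reads from GFP, of which Pro-CCA took 82.8, Pro-CCY 22.2 and Pro-CCG 16.6. GFP-(GP)10, whose repeat contains proline, had no proline tRNA region. The only other one was a Pro-CCG region with 5.58 listed reads from GFP-(GR)50 replicate 2, at TRP-CGG1-3, just past the list minimum.

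The other leading codon families split into those that reached GFP-(GR)50 replicate 2 and those that did not. The name Glu-GAG had 1304 listed reads from GFP, 7.25 from GFP-(GR)50 replicate 1, 158 from GFP-(GP)10 and 60.5 from GFP-(GR)50 replicate 2. Genes with anticodon TTC, which reads GAA, held 893, 7.25, 60.7 and 31 of these, and genes with anticodon CTC held 402, none, 97.5 and 29.5. Asp-GAY had 852, 131 and 86.8 from GFP, GFP-(GP)10 and GFP-(GR)50 replicate 2, and Asn-AAC had 423, 61.1 and 17.7. Lys-AAA had 814 from GFP, 22.2 from GFP-(GR)50 replicate 1, 16.3 from untransfected cells, 88.0 from GFP-(GP)10 and 70.3 from GFP-(GR)50 replicate 2. Lys-AAG had 533 from GFP, none in GFP-(GR)50 replicate 1, 23.3 from untransfected cells, 34 from GFP-(GP)10 and 91.8 from GFP-(GR)50 replicate 2. The last value is 45.3 without a chr19 copy that is also annotated as rRNA and that the controls list without a tRNA name. Tyr-TAC had 295 from GFP, 9.17 from untransfected cells, 37.1 from GFP-(GP)10 and 24.8 from GFP-(GR)50 replicate 2, and Ser-AGY had 287, 18.2 and 8 from GFP, GFP-(GP)10 and GFP-(GR)50 replicate 2. His-CAY had 10 regions with 507 listed reads from GFP and 9 regions with 52.9 from GFP-(GP)10, and none in GFP-(GR)50 replicate 2. Thr-ACY had 149 from GFP and 21.8 from GFP-(GP)10, again with none in GFP-(GR)50 replicate 2. Cys-TGY had 198 from GFP alone. Histidine and glycine were thus the strongest amino acids of GFP-(GP)10 without a region in GFP-(GR)50 replicate 2.

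After overlapping same-strand regions were merged over the lists, the tRNA regions formed 236 loci. Of these, 163 were in 1 list, 42 in 2, 24 in 3, 5 in 4 and 2 in all 5. All 7 loci of untransfected cells were also in GFP, as were 66 of 68 from GFP-(GP)10 and 36 of 40 from GFP-(GR)50 replicate 2. The tRNA loci of experiment 2 were thus nearly a subset of those in GFP, a list of the other experiment and RNase I amount. The same share over all regions of the experiment 2 lists was not counted, so this is not shown to be particular to tRNA. The strongest locus, TRE-TTC2-1 (chr13:44917920-44917998, minus strand), had 568, 7.25, 35 and 25 listed reads from GFP, GFP-(GR)50 replicate 1, GFP-(GP)10 and GFP-(GR)50 replicate 2, and no region in untransfected cells. Of its GFP reads, 525 were unique.

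TRR-TCG1-1 (chr15:89335096-89335146, plus strand), an arginine gene, had 304 listed reads from GFP, 8 from untransfected cells, 32 from GFP-(GP)10 and 50 from GFP-(GR)50 replicate 2. All 50 reads of GFP-(GR)50 replicate 2 were unique, and this was its strongest tRNA region. It was the one locus of the leading 10 with more listed reads in GFP-(GR)50 replicate 2 than in GFP-(GP)10. The lysine genes TRK-TTT3-5 (chr17:8119154-8119230) and TRK-TTT3-2 (chr1:204507016-204507108) were the 2 loci present in every list. TRK-TTT3-5 had 255 listed reads from GFP, 16.1 from GFP-(GR)50 replicate 1, 8.10 from untransfected cells, 31.8 from GFP-(GP)10 and 26.5 from GFP-(GR)50 replicate 2. TRK-TTT3-2 had 175, 6.10, 8.20, 29.9 and 24.4 in the same order. At both, the listed reads of GFP-(GP)10 and GFP-(GR)50 replicate 2 lay close together and above those of untransfected cells. As shares of all listed reads, GFP-(GR)50 replicate 2 lay below untransfected cells at TRK-TTT3-5 and TRK-TTT3-2 (log2 ratio -0.87 and -1.003) and further below GFP-(GP)10 (-4.43 and -4.46).

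The other 6 leading loci had more listed reads from GFP-(GP)10 than from GFP-(GR)50 replicate 2. TRN-GTT2-7, an asparagine gene on chr1, had 264 listed reads from GFP, 26.6 from GFP-(GP)10 and 17.7 from GFP-(GR)50 replicate 2. The aspartate genes on chr12 TRD-GTC2-9, TRD-GTC2-10 and TRD-GTC1-1 had 226, 180 and 141 from GFP, 25.8, 21.9 and 11.2 from GFP-(GP)10 and 18.2, 13.2 and 8.08 from GFP-(GR)50 replicate 2. The tyrosine gene TRY-GTA2-1 had 150 from GFP, 9.17 from untransfected cells, 24.3 from GFP-(GP)10 and 19.5 from GFP-(GR)50 replicate 2. The lysine gene TRK-CTT2-4 had 146, 7.79, 17.8 and 16.1 in those lists. GFP lay above every other list at all 10 loci.

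**Figure D2:**
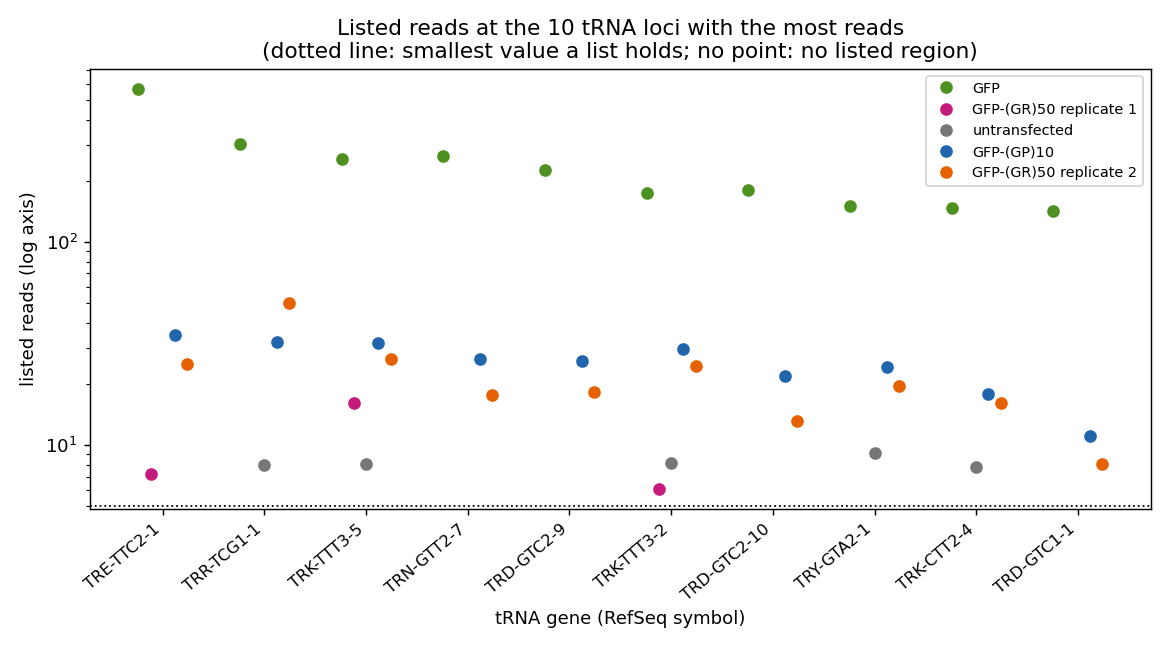
Listed reads (log axis) at the 10 tRNA loci with the most listed reads summed over the 5 lists, 1 point per library; no point means no listed region, and the dotted line is the list minimum of 5 reads. GFP lies highest at every locus, and GFP-(GR)50 replicate 2 lies above GFP-(GP)10 at TRR-TCG1-1.

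Besides TRE-TTC2-1, TRK-TTT3-5 and TRK-TTT3-2, the tRNA regions of GFP-(GR)50 replicate 1 held the arginine gene TRR-CCG1-3, where its 7 listed reads were all unique. That gene had 66.5 listed reads from GFP, 9.75 from GFP-(GP)10 and no region in GFP-(GR)50 replicate 2. The 10 tRNA regions with the most unique reads were all in GFP. Besides 7 at loci already described (TRE-TTC2-1, TRR-TCG1-1, TRN-GTT2-7, TRD-GTC1-1, TRY-GTA2-1, TRK-CTT2-4 and TRK-TTT3-5), they were TRR-CCT4-1 with 122 unique reads, TRV-TAC2-1 with 104 and a tRNA-Lys-AAA copy outside RefSeq tRNA genes with 114.

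Most GFP tRNA regions had no counterpart in GFP-(GR)50 replicate 1. Of the 230, 226 (98.3%) had no overlapping same-strand region there, against 77.5% of all regions of the GFP list. All 4 tRNA regions of GFP-(GR)50 replicate 1 had one in GFP, whereas 44.3% of all its regions had none. In experiment 2, 1 of 7 tRNA regions of untransfected cells lacked a region in GFP-(GR)50 replicate 2, against 82.2% of all regions of that list. In the reverse direction, 33 of 40 tRNA regions of GFP-(GR)50 replicate 2 (82.5%) lacked one in untransfected cells, against 74.3% of all its regions. The last share lies near the background. Against GFP-(GP)10, 9 of 40 tRNA regions of GFP-(GR)50 replicate 2 (22.5%) had no counterpart, against 85.0% of all its regions. Of the 68 tRNA regions of GFP-(GP)10, 38 (55.9%) had none in GFP-(GR)50 replicate 2, near the 49.7% of all its regions. Those 38 were weak, with a median of 6.56 listed reads and a maximum of 13.6, while the 30 with a counterpart had a median of 10.8. Seen by locus, 30 tRNA loci were shared by these lists, 44.1% of the GFP-(GP)10 loci and 75.0% of the GFP-(GR)50 replicate 2 loci.

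At loci with a region in both lists, the median tRNA locus held a smaller part of all listed reads, rRNA included, in GFP-(GR)50. Each locus entered as the log2 ratio of its share of all listed reads. Against GFP the median was -5.30 over 4 tRNA loci and -0.84 over all 87 matched loci. Against GFP-(GP)10 it was -4.50 over 31 tRNA loci (range -5.64 to -1.74) and -3.39 over all 121. Against untransfected cells it was -1.49 over 7 tRNA loci and -2.99 over all 203, so that tRNA loci lay above the median of matched loci in that comparison. The listed reads themselves, with no scaling, had a median ratio of 0.797 against GFP-(GP)10, and 5 of the 31 loci were higher in GFP-(GR)50 replicate 2. Over all 121 matched loci the ratio was 1.72 and 82 were higher, and over the 60 that are neither tRNA nor rRNA it was 1.57 and 47 were higher. The rRNA class of matched loci includes the unannotated contig regions that match rRNA in width and reads. Against untransfected cells the ratio was 2.13 and 6 of 7 tRNA loci were higher. There, 76 of all 203 matched loci were higher (ratio 0.751), and 33 of the 158 that are neither tRNA nor rRNA (0.635). The chr19 lysine copy described below is 1 of the matched tRNA loci in both comparisons of experiment 2. Of the 31 loci matched with GFP-(GP)10, 9 are Asp-GAY and Glu-GAG copies of the chr1 array described below. These copies have no unique read and equal values within each family. The medians -4.50 and 0.797 and the low end -5.64 are values of such copies, so the 31 loci are not separate measurements. The listed tRNA reads per shared locus thus lay close together in GFP-(GP)10 and GFP-(GR)50 replicate 2, while the rRNA loci matched between them had a median ratio of 22.6. That closeness covers only loci with at least 5 reads in both lists. The 38 tRNA regions of GFP-(GP)10 without a counterpart are left out. The tRNA regions of GFP-(GR)50 replicate 2 with a counterpart had a median of 7 listed reads, near the minimum. The scaled value moves with that rRNA signal, and the lists hold no library totals to scale by instead. Scaled to reads outside annotated rRNA, the tRNA medians were -1.68 against GFP, -3.70 against GFP-(GP)10 and -0.28 against untransfected cells. That scale still counts the contig regions of experiment 2 that match rRNA. Leaving them out raised the tRNA share of GFP-(GR)50 replicate 2 from 1.58% to 7.30%. For untransfected cells it went from 0.445% to 0.551%, and for GFP-(GP)10 from 23.0% to 35.4%. Medians on that scale were not computed, so the direction against untransfected cells was not settled.

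**Figure D3:**
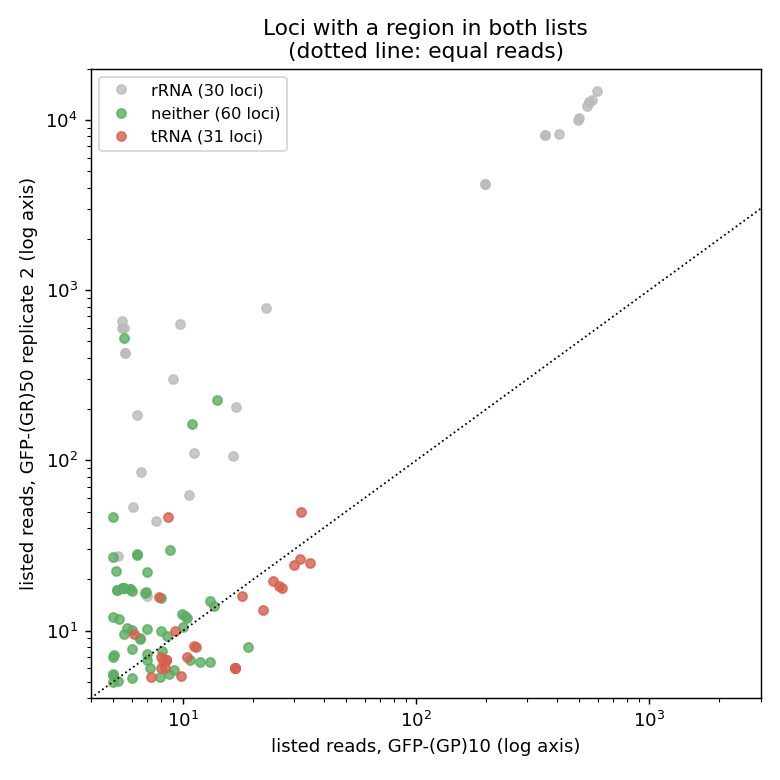
Listed reads in GFP-(GP)10 (horizontal, log axis) and GFP-(GR)50 replicate 2 (vertical, log axis) at the 121 loci with a region in both lists, coloured by class, with a dotted line of equal reads. The 31 tRNA points (red) lie along the line, 5 of them above it, and the 30 rRNA points (grey, contig regions that match rRNA included) lie above it.

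The 5 tRNA loci higher in GFP-(GR)50 replicate 2 than in GFP-(GP)10 were 4 lysine loci and 1 arginine locus. TRK-CTT2-1 had 15.7 against 7.83 listed reads, TRK-TTT14-1 had 9.57 against 6.13, and TRK-TTT3-4 had 9.91 against 9.21. The arginine locus was TRR-TCG1-1. The remaining lysine locus, on chr19, also carries an rRNA repeat annotation, and its partner in GFP-(GP)10 was not classed as tRNA. These loci were named after their values were seen.

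Of the 40 tRNA loci of GFP-(GR)50 replicate 2, 10 (25%) had no tRNA region in a control of experiment 2. Of all its regions, 74.3% lacked an overlapping region in untransfected cells and 85.0% in GFP-(GP)10. The share of all regions lacking one in both was not counted, so the 10 are not shown to be particular to tRNA. Of these 10 loci, 6 had a tRNA region in GFP, the control of experiment 1, and 4 had none in any control. Of the last 4, 1 lies in a RefSeq tRNA gene. A tRNA-Ser-TCA(m) copy (chr1:632616-632685) had 49 listed reads and a tRNA-Gln-CAA copy (chr1:629497-629561) had 13.3, and neither had a unique read. Both lie within AL669831.3, a gene at the start of chr1 in which GFP, GFP-(GP)10 and GFP-(GR)50 replicate 2 also had regions with no tRNA name. A tRNA-Lys-AAG copy (chr19:35575787-35575911) had 46.5 listed reads, 11 of them unique, and was annotated with the large-subunit rRNA repeat as well. Regions not named tRNA overlapped it with 25.4 listed reads from untransfected cells and 8.64 from GFP-(GP)10. The fourth was TRP-CGG1-3, described above, with 3 unique reads. The lysine, serine and glutamine copies are the tRNA-like regions left out above. Among the 6 also found with GFP, TRK-CTT2-2 had 7.56 listed reads from GFP-(GR)50 replicate 2 and 87.3 from GFP.

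Among regions outside RefSeq tRNA genes and pseudogenes, lysine copies carried the most unique reads in GFP. A tRNA-Lys-AAA copy (chr2:61646939-61646981) had 116 listed reads, 114 of them unique, and a tRNA-Lys-AAG copy (chr15:95784660-95784720) had 109, 102 of them unique. The chr15 copy also had 5.50 listed reads from untransfected cells and was the tRNA region of that list without a counterpart in GFP-(GR)50 replicate 2. Unlike the chr1 copies, these have reads of their own.

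A tandem array of tRNA genes on chr1 shows how copies share reads. Between 161422092 and 161540314, GFP had 27 tRNA regions with 918 listed reads, GFP-(GP)10 had 14 with 146 and GFP-(GR)50 replicate 2 had 9 with 57.8. The 4 Glu-GAG copies each had 74.35 listed reads from GFP, 16.73 from GFP-(GP)10 and 6.02 from GFP-(GR)50 replicate 2. The 5 Asp-GAY copies each had 37.96, 8.46 and 6.74. The 5 Gly-GGA copies had 41.6 to 57.5 from GFP, 4 of them had 7.08 from GFP-(GP)10, and none had a region in GFP-(GR)50 replicate 2. The 5 Leu-CTG copies each had 6.94 from GFP alone. Of the array's regions, 24 of 27 from GFP, 13 of 14 from GFP-(GP)10 and 9 of 9 from GFP-(GR)50 replicate 2 had no unique read. Equal values without unique reads do not measure a single copy, and copies of a family are not separate measurements.

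The regions reached the 3′ end of the gene and began at varied depths, with a median width of 56 nt over all lists and a median gene length of 73 nt. Positions were measured from the RefSeq 5′ end of the gene in nucleotides, introns included, and are exact only to within 1 nt because no source used here says whether the file coordinates count from 0 or 1. The median start was 21 nt into the gene for regions from GFP, 18.5 from GFP-(GR)50 replicate 1, 29.5 from untransfected cells, 17 from GFP-(GP)10 and 8 from GFP-(GR)50 replicate 2. Starts at least 15 nt inside the gene made up 145 of 222 regions from GFP (65.3%), 37 of 66 from GFP-(GP)10 (56.1%) and 16 of 36 from GFP-(GR)50 replicate 2 (44.4%). Starts within 5 nt of the 5′ end made up 27.5%, 27.3% and 33.3%. In GFP-(GR)50 replicate 2 the median region was 68 nt wide. Only 1 of the 334 regions ended before the 3′ end of its gene, and the ends lay 0 to 5 nt past it in 68.5% of GFP, 95.5% of GFP-(GP)10 and 72.2% of GFP-(GR)50 replicate 2 regions. Ends more than 10 nt past the gene, into 3′ flanking sequence, were found in 39 regions of GFP, 1 of GFP-(GP)10 and 4 of GFP-(GR)50 replicate 2. The listed tRNA regions thus share a 3′ edge near the end of the gene and differ in where they begin.

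**Figure D4:**
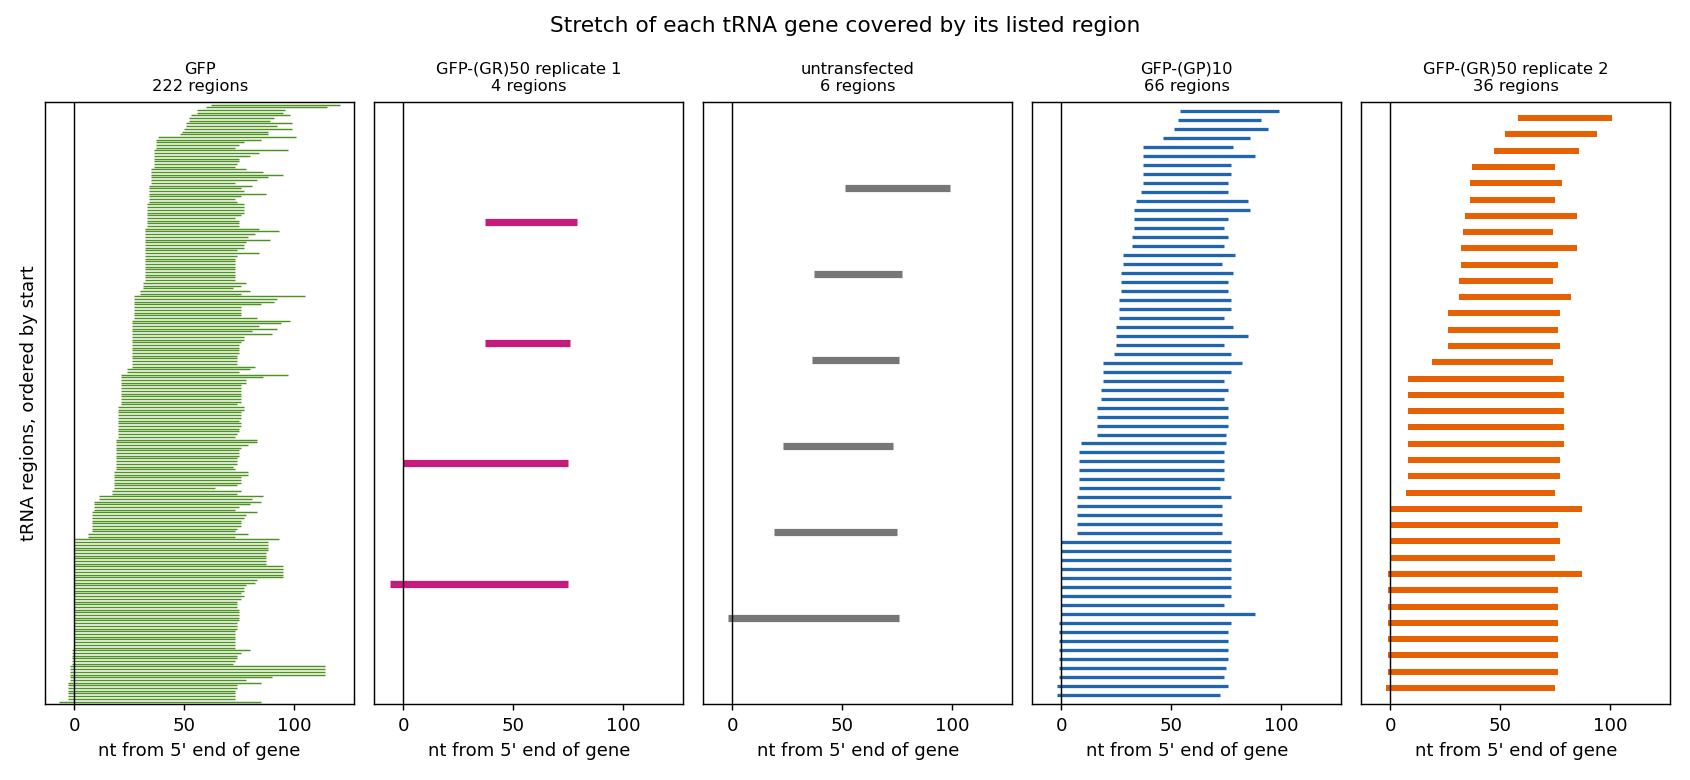
Stretch of each RefSeq tRNA gene covered by its listed region, 1 horizontal line per region and 1 panel per library, in nt from the 5′ end of the gene (vertical line at 0), ordered by start. Ends fall close together near the 3′ end of the gene, and starts range from near 0 to past 50 nt.

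Starts differed by amino acid. In GFP, starts lay within 5 nt of the 5′ end in all 19 glycine regions, all 9 histidine regions, 11 of 13 aspartate and 11 of 15 glutamate regions. They lay at least 15 nt inside in all 15 alanine, 15 methionine, 12 asparagine, 9 isoleucine, 9 cysteine and 9 tyrosine regions, and in 17 of 18 arginine and 13 of 14 threonine regions. The median start was 33 nt for alanine, 32 for methionine, 26 for arginine, 21 for asparagine and 8 for lysine. Tyrosine, whose genes carry an intron, had the deepest median, 52 nt. Copies of a family share reads and so also share edges, and the groups are not made of independent regions. Among GFP regions without unique reads, 39 of 85 started within 5 nt of the 5′ end, against 22 of 137 with at least 1.

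**Figure D5:**
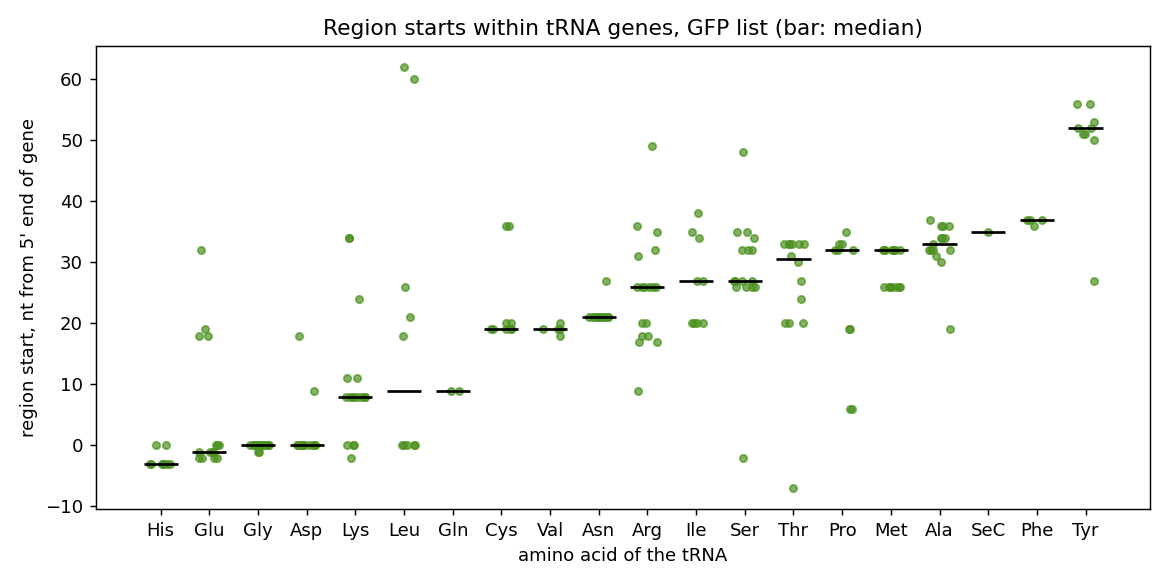
Start of each GFP region within its RefSeq tRNA gene, in nt from the 5′ end, by amino acid; 1 point per region, black bars are medians. Histidine, glycine, glutamate and aspartate medians lie near 0, and the tyrosine median lies at 52 nt.

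Region starts were compared at genes with a region in both lists. The start in GFP-(GR)50 replicate 2 minus that in GFP-(GP)10 had a median of 1 nt over 29 genes (range -37 to 13), and 12 of the 29 lay within 5 nt. Against untransfected cells it was -9 nt over 6 genes (range -37 to 8), and 2 of the 6 lay within 5 nt. Against GFP, the median was 6 nt for GFP-(GP)10 over 65 genes and 6 nt for GFP-(GR)50 replicate 2 over 35. GFP was made at the other RNase I amount, and its regions held more reads, so amount, experiment and height cannot be told apart here. Aspartate, lysine and glutamate, whose median starts in GFP lay at 0, 8 and -1 nt, made up 10, 9 and 7 of the 40 tRNA regions of GFP-(GR)50 replicate 2. Their part in its lower median start was not tested.

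A fixed list of 54 gene symbols was taken for the making, modification, export, charging and delivery of tRNA, and few had a region. The list holds TRDMT1 also under its older symbol DNMT2, so it covers fewer genes than symbols. It includes RMRP, which belongs to an enzyme related to RNase P and not to RNase P itself. The count was 2 from GFP, 1 from GFP-(GR)50 replicate 1, 1 from untransfected cells, 1 from GFP-(GP)10 and 4 from GFP-(GR)50 replicate 2, of 278, 109, 762, 210 and 549 gene names in those lists. RMRP, the RNA of RNase MRP, had 17 listed reads from GFP, 8 from GFP-(GR)50 replicate 1 and 31.5 from GFP-(GR)50 replicate 2, and no region in untransfected cells or GFP-(GP)10. RPPH1, the RNA of RNase P, which cuts the 5′ end of tRNA precursors, had 25 listed reads over 2 regions in GFP-(GR)50 replicate 2 and no region elsewhere. Only GFP-(GR)50 replicate 2 listed the RNA subunits of both enzymes. RMRP was also listed in GFP and in GFP-(GR)50 replicate 1, the lists with the most and the fewest tRNA regions. A link to the number of tRNA regions was not tested. The isoleucyl-tRNA synthetase gene IARS1 had an exonic region with 6 reads in GFP-(GR)50 replicate 2. The other regions were intronic, in EIF2S3 (GFP), LARS1 (untransfected cells), GTF3C1 (GFP-(GP)10) and EIF2S2 (GFP-(GR)50 replicate 2), with 5 to 7 reads each.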

How the data were processed

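The submitters' processing notes name Novoalign 4.03.03, UMI-tools 1.1.2, bedtools 2.30.0 and featureCounts 2.0.2, and as builds GRCh38.p13 and hg38. No source used here names the region caller. Each deposited list holds the regions of 1 library. Per the file headers, one column is the count of reads mapping to 1 place, an unscaled count; in GFP-(GR)50 replicate 2, 6 of its values are not whole, and it was taken as an expected count, none of them at tRNA. A further deposited column is an expected count (estimated count): unique reads plus multimapping ones, which the authors scaled by a factor no source used here gives. Neither is normalised for depth.

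Listed reads summed to 30598 (GFP), 56588 (GFP-(GR)50 replicate 1), 22519 (untransfected), 7468 (GFP-(GP)10) and 134222 (GFP-(GR)50 replicate 2). Shares used reads rounded to whole numbers with exact 95% intervals. Regions on 1 strand overlapped if they shared 1 bp or more. RefSeq GRCh38.p14 gave tRNA gene names and offsets; its table has no strand, and chromosome coordinates do not change between patches. Each GFP-(GR)50 library was compared with controls of its own experiment, without tests. Named were glycine, arginine and proline by codon, the 15 strongest codon families, all tRNA regions of GFP-(GR)50 replicate 1, the 10 strongest loci, up to 5 loci of GFP-(GR)50 replicate 2 absent from experiment 2 controls and the 10 regions with most unique reads. Members and lists were chosen with earlier results of these data known. Overlap and merging were tested on simulated data. Python 3.11.15, pandas 2.3.3 and scipy 1.17.1 were used. Alternatives are in the closing section.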

Additional observations from a re-analysis of the deposited data

Results flagged for a closer look

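The direction of GFP-(GR)50 against its controls differed for 1 of the 2 controls of experiment 2. The tRNA share of listed reads stood at -27.4 percentage points against GFP in experiment 1. In experiment 2 it stood at 0.134 points against untransfected cells (0.0529 without the tRNA-like copies of GFP-(GR)50 replicate 2). Against GFP-(GP)10, also in experiment 2, it stood at -9.37 points, the same direction as against GFP. The difference was not tested, and the controls are of different kinds.

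GFP-(GR)50 replicate 2 had a region with 6.50 listed reads and no unique read on the strand opposite to the tRNA-Ser-TCA(m) copy (chr1:632632-632757). No other list had a region opposite a tRNA name.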

How the results depend on the processing

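No difference in tRNA share changed sign under any alternative run. Against GFP, GFP-(GR)50 replicate 1 stood at -73.9 points outside annotated rRNA (also -73.9 without contig regions that match rRNA), -67.2 in unique reads and -46.5 as a share of regions. Against GFP-(GP)10, GFP-(GR)50 replicate 2 stood at -21.4, -28.1, -21.2 and -14.6 under the same settings, and at -6.42 with at least 10 reads per region. Against untransfected cells it stood at 1.13, 6.75, 2.34 and 4.45, and at 0.0529 without its tRNA-like copies. The copy setting left out no region of untransfected cells. The contig and copy settings were chosen after seeing the data.

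Overlap counts were unchanged when 50% of the shorter region had to overlap. With at least 10 reads, 0 of 1 untransfected and 4 of 20 GFP-(GP)10 tRNA regions had no counterpart in GFP-(GR)50 replicate 2, and 7 and 2 of its 13 had none in untransfected cells and GFP-(GP)10. Scaled to reads outside annotated rRNA, the median log2 ratio at matched tRNA loci was -1.68 against GFP, -0.28 against untransfected cells and -3.70 against GFP-(GP)10. That scale still counts the contig regions that match rRNA, and medians without them were not computed. Leaving them out would turn the sign against untransfected cells positive, as described above, so that direction depends on the scale.

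The mean share of GFP-(GR)50 ranged from 0.0644% to 0.386% with either replicate left out. Of 23 amino acid shares, 15 moved beyond their interval when regions were counted, 14 with at least 10 reads, 14 in unique reads and 3 without tRNA-like copies. The copy setting removed regions from GFP-(GR)50 replicate 2 alone, so shares of the other lists could not move under it. In GFP-(GR)50 replicate 2, glutamate moved from 11.7% to 14.8%, aspartate from 16.8% to 21.2% and arginine from 16.0% to 20.3%. Lysine and proline stayed within their intervals. No paired analysis was possible because only 1 library per group and experiment exists and no result comes from a test. Most regions outside GFP lie near the minimum of 5 reads, which limits what an absent region shows.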
